A study of Mus musculus with 18 samples.

Results

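The 36 genes described here encode the machinery that copies DNA: the helicase and its loaders, the sliding clamp, the polymerases, the enzymes that make nucleotides, and the cyclins and transcription factors that start S phase. They were picked by name, and each was read from the brightest probe set that the array's annotation gives to that symbol alone. All 36 were on the array, among 17097 named genes, and all 36 were among the 13190 genes that passed the filter on low intensity. On every array all 36 lay above 3.87 log2, the level of control probe sets without a mouse target. The cells were bone marrow derived macrophages of male C57BL/6 mice aged 10 weeks, grown for 1 week from the marrow of 3 mice; the labels do not say whether it was pooled. The medium held 10% fetal calf serum and human CSF1, the macrophage growth factor, made by recombinant means and used at 10000 U/ml, and the cells were replated with both. Cells at baseline had no dexamethasone, and the other groups were harvested 1, 2, 4, 10 or 24 h after addition of the glucocorticoid dexamethasone at 100 nM. Each of the 6 groups held 3 arrays, and no untreated arrays at the later times were analysed here, so the effect of dexamethasone and that of time in culture after replating cannot be told apart. Macrophages grown this way divide in response to CSF1, and in bulk RNA a smaller share of cells in S phase and less RNA per cell cannot be told apart.

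DNA replication starts from origins. The origin recognition complex, Cdc6 and Cdt1 load the MCM helicase onto DNA in G1, Cdc45, the GINS complex and Mcm10 help to switch it on, and replication factor C then loads the Pcna clamp for the polymerases. Many of these genes are driven by E2F transcription factors, which the RB proteins hold in check until cyclin-dependent kinases release them, so their mRNAs usually rise together as cells enter S phase. In macrophages this programme depends on CSF1.

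A minority of the replication genes fell at 4 and 10 h, by modest amounts, and most members passed no test. The genes that fell at 4 h were Mcm2, Mcm4, Cdt1 and Rfc2, and those that fell at 10 h were Mcm2, Mcm3, Gins2, Pcna, Rfc2 and Rfc3. At 24 h Pcna alone of the 36 passed the test, and it was lower. No member was called higher against baseline at any of the 5 times, although Mcm5 and Ccne2 were at 24 h in some of the alternatives, and the largest fall among those called was that of Mcm2 at 10 h, to 75.2% of its baseline intensity.

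Tests were made with limma on log2 intensity, with 3 arrays per group and p-values adjusted by Benjamini-Hochberg over all tested genes, and a gene is called where the adjusted p is under 0.05. At 4 h 4 of 36 members (11.1%) were called, all lower, where 3.03% of all tested genes were called lower and 7.52% in either direction. At 10 h 6 of 36 (16.7%) were called, all lower, against 6.16% lower and 14.4% in either direction, so that the share of members called was near that of all genes and differed in direction. At 24 h 1 of 36 (2.78%) was called, lower, against 5.34% lower and 12.7% in either direction. At 1 h 0 of 36 were called, where 0.387% of all tested genes were called and 0.0834% were lower, and 0 members had an unadjusted limma p under 0.05. At 2 h 0 of 36 were called, against 2.15% of all tested genes and 0.576% lower, and 3 members had an unadjusted limma p under 0.05. Called higher at 1, 2, 4, 10 and 24 h were 0 members by limma, where 0.303%, 1.57%, 4.5%, 8.29% and 7.38% of all tested genes were; 3 members had an unadjusted p under 0.05 and a higher value at 24 h, 1 at 2 h and 0 at 1, 4 and 10 h. The F test over the 5 times had an adjusted p under 0.05 for 10 of 36, against 17.4% of all tested genes. These 10 were Mcm2, Mcm3, Mcm4, Mcm5, Cdc6, Cdt1, Pcna, Rfc2, Rfc3 and Rrm2. Below, called refers to single comparisons only, so that Mcm5, Cdc6 and Rrm2 passed the F test but count as not called.

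**Figure D1:**
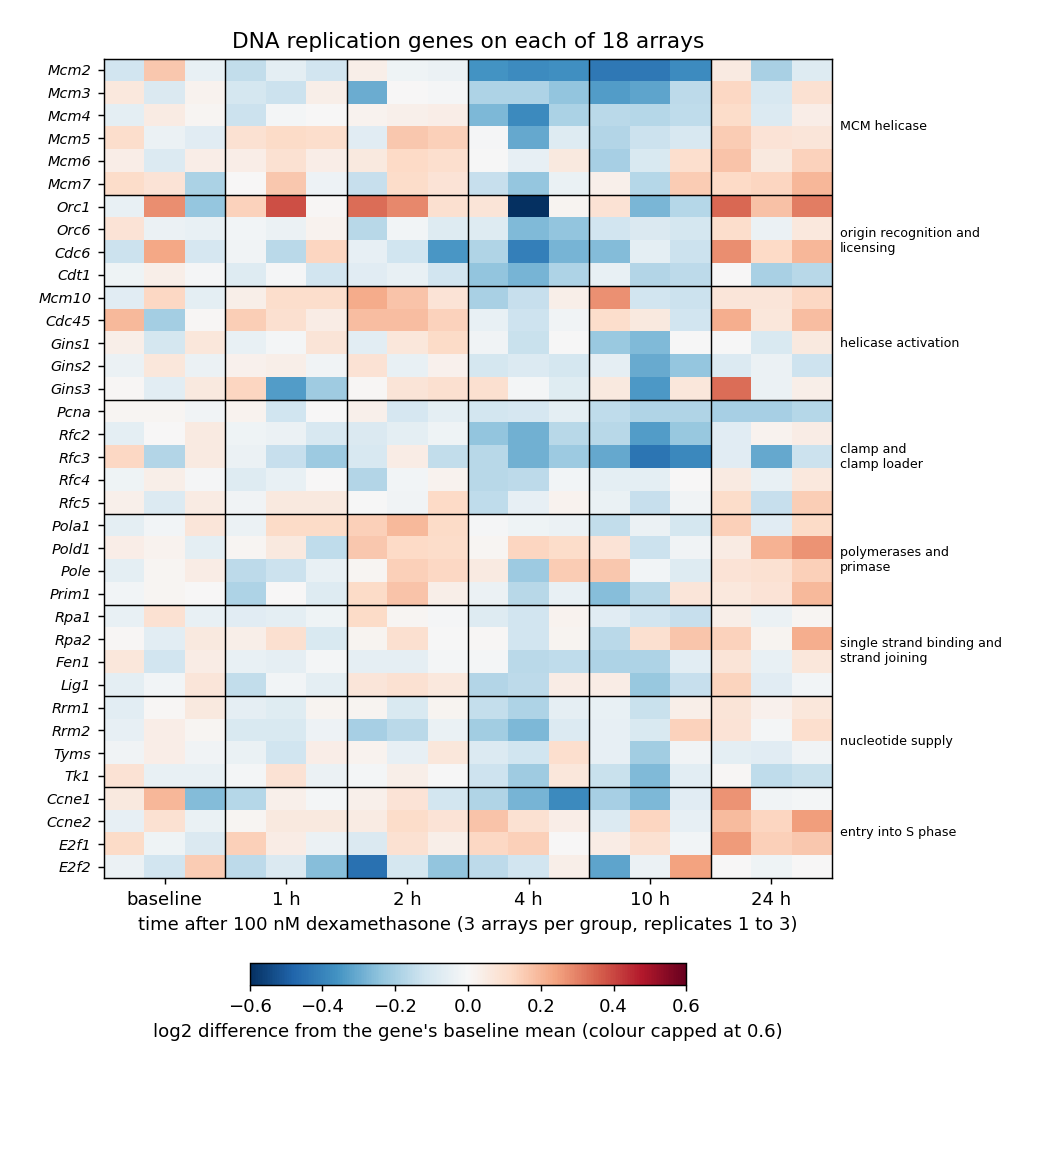
Log2 difference of each replication gene from its own baseline mean (colour, capped at 0.6 in either direction) on the 18 arrays (columns, 3 per time), with genes grouped by role (rows). Blue is commonest in the columns of 4 h and 10 h, and the columns of 24 h are mostly pale or red.

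Counted without regard to the test, 31 of 36 changes against baseline were below 0 at 4 h (86.1%) and 29 of 36 at 10 h (80.6%), where 48.2% and 47.9% of all tested genes were below 0. At 24 h 27 of 36 members were above 0, against 52.7% of all tested genes. The median change of the members was -0.03 log2 at 1 h, 0.02 at 2 h, -0.10 at 4 h, -0.10 at 10 h and 0.05 at 24 h, beside medians of 0.00 at 1 h and 0.01 at each later time over all tested genes. All 3 treated arrays lay below all 3 baseline arrays for 11 of 36 members at 4 h and 12 at 10 h, where 10.1% and 11.6% of all tested genes did. They lay below for 0 members at 1 h, 1 at 2 h and 1 at 24 h, against 4.75%, 4.86% and 12.6% of all tested genes. They lay above all baseline arrays for 7 members at 24 h, 4 at 2 h and 1 at 1 h, against 15.3%, 8.26% and 5.05%, and for 0 members at 4 h and 10 h, against 12.2% and 14%. With the 36 genes averaged on each array, the mean difference from baseline was -0.092, -0.176 and -0.064 log2 on the 4 h arrays of replicates 1, 2 and 3. It was -0.097, -0.154 and -0.067 at 10 h, and 0.094, -0.014 and 0.071 at 24 h. These 6 arrays of 4 and 10 h lay below the 3 baseline arrays, which ranged from -0.014 to 0.010, and at 24 h replicates 1 and 3 lay above them.

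**Figure D2:**
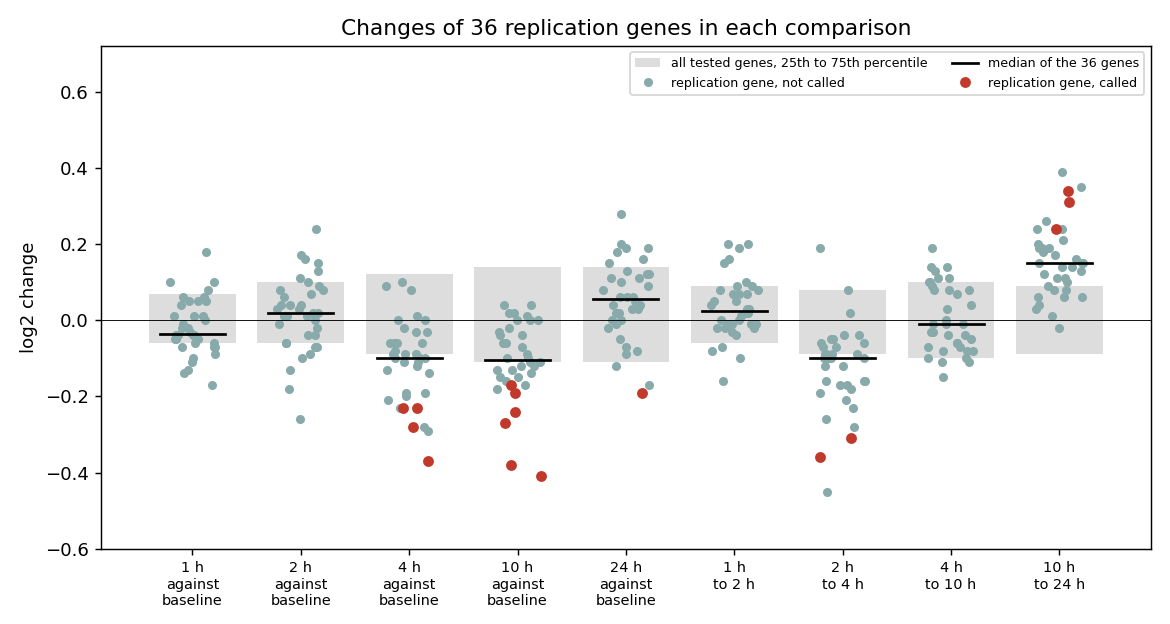
Log2 change of the 36 replication genes (points) in the 5 comparisons with baseline and the 4 steps between successive times; red points passed limma's test, the black bar is the median of the 36 genes and the grey box spans the 25th to 75th percentile of all tested genes. The median lies at -0.10 at 4 h and 10 h and at 0.15 in the step from 10 h to 24 h.

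The MCM genes encode the ring-shaped helicase that opens the double helix. Mcm2 read 8.44, 8.72 and 8.51 log2 at baseline (8.56 ± 0.15, SD, n = 3), 8.20, 8.18 and 8.19 at 4 h (8.19 ± 0.01) and 8.13, 8.13 and 8.18 at 10 h (8.14 ± 0.03). All treated arrays of both times lay below the lowest baseline array. Mcm2 fell by 0.37 ± 0.07 (limma standard error) on the log2 scale at 4 h, with a limma adjusted p of 0.00122, and fell by 0.41 ± 0.07 at 10 h, with an adjusted p of 0.000221. At 24 h it read 8.61, 8.36 and 8.48, with replicate 2 below all baseline arrays and the others within their range, and the change was -0.07 with an adjusted p of 0.6. Both calls of Mcm2 against baseline held in every alternative and without any single array, with values from -0.43 to -0.28 at 4 h and from -0.47 to -0.33 at 10 h.

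Mcm4, another subunit of the ring, was lowest at 4 h. It read 9.70, 9.81 and 9.77 log2 at baseline and 9.49, 9.38 and 9.57 at 4 h, with no overlap, and it fell by 0.28 ± 0.06 on the log2 scale (limma adjusted p 0.00161). At 10 h the change was -0.16 ± 0.06 with an adjusted p of 0.0708, although the 3 arrays, at 9.60, 9.59 and 9.61, again lay below baseline; with the replicate block it was called (adjusted p 0.0401). Mcm3 read 8.38, 8.23 and 8.34 log2 at baseline and 7.98, 8.0 and 8.16 at 10 h, all lower. It fell by 0.27 ± 0.08 at 10 h, with an adjusted p of 0.0283, and its change at 4 h was -0.20 ± 0.08 with an adjusted p of 0.17. The call of Mcm3 at 10 h was lost without baseline replicate 1 (adjusted p 0.0959), baseline replicate 3 (0.0855), 10 h replicate 1 (0.0961) or 10 h replicate 2 (0.0936). It was also lost with the mean of both Mcm3 probe sets, with an adjusted p of 0.149. The other 3 subunits were not called: Mcm5 stood at -0.13 log2 at both times, Mcm7 at -0.14 at 4 h and 0.00 at 10 h, and Mcm6 at 0.01 and -0.06. At 24 h Mcm5 stood at 0.11 (adjusted p 0.421), but it was called higher with the mean of its probe sets, at 0.27 (0.0182), and with the dim one of largest variance, at 0.44 (0.0476). The 6 subunits of the ring thus spanned -0.37 to 0.01 log2 at 4 h, with standard errors of 0.06 to 0.09.

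**Figure D3:**
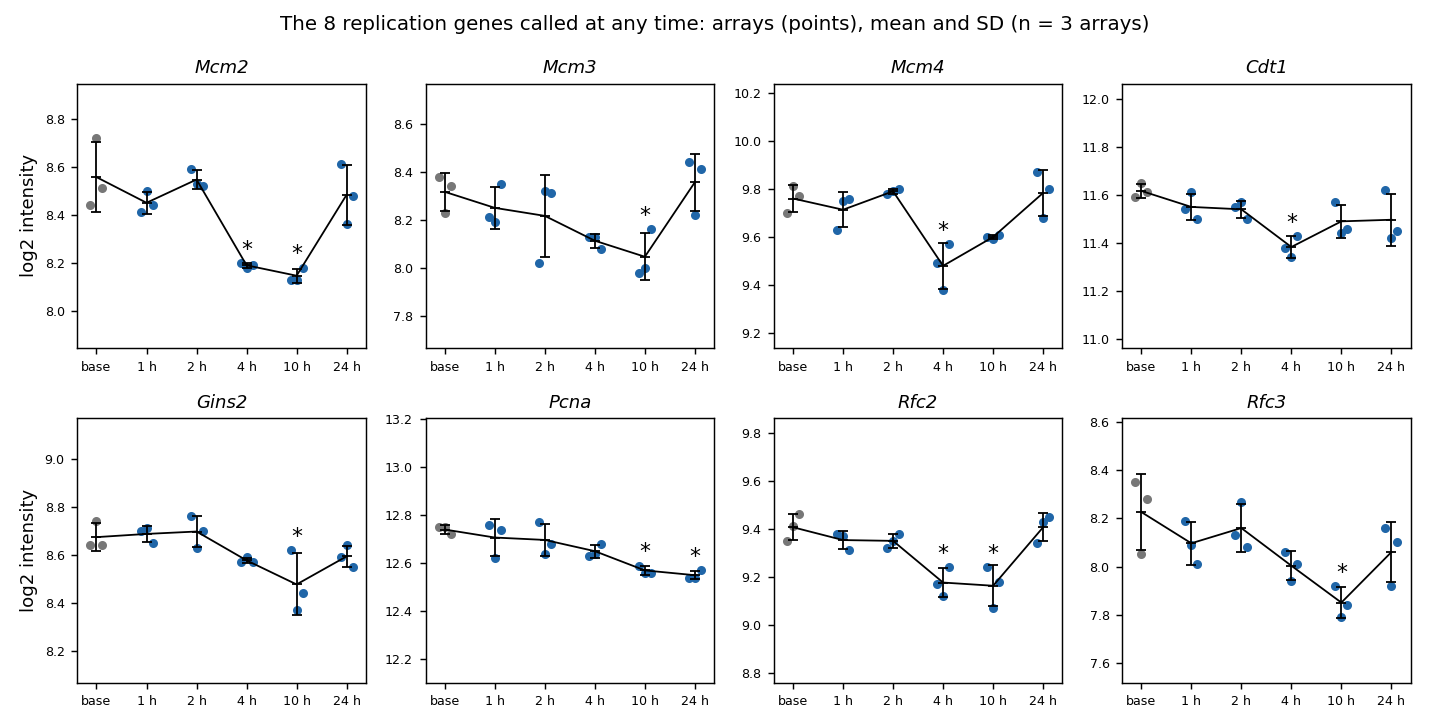
Log2 intensity of the 8 replication genes called at any time, on each array (points), with mean and SD (bars, n = 3 arrays), at baseline (grey, base) and after dexamethasone (blue); each panel spans the same range on its own level, and a star marks a limma adjusted p under 0.05 against baseline. Pcna is the gene with a star at 24 h, where its mean is 12.55, and Mcm2 has stars at 4 h and 10 h.

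Among the genes that mark origins and license them, Cdt1 fell and the others were not called. Cdt1, which brings the MCM ring to origins, read 11.59, 11.65 and 11.61 log2 at baseline and 11.38, 11.34 and 11.43 at 4 h, with no overlap. It fell by 0.23 ± 0.05 on the log2 scale at 4 h (limma adjusted p 0.00187) and stood at -0.13 ± 0.05 at 10 h (0.0895) and -0.12 ± 0.05 at 24 h (0.125). It was called at 10 h without 10 h replicate 1 (0.0324) or with the replicate block (0.0466), and at 24 h without 24 h replicate 1 (0.0163). The mean of its 3 probe sets gave -0.18 at 4 h with an adjusted p of 0.119; the dimmest of them, at 3.29 log2, lay under the control level. Cdc6, the loading factor, read 6.66, 7.02 and 6.69 log2 at baseline and 6.61, 6.38 and 6.51 at 4 h, all lower, but its change of -0.29 ± 0.12 had an adjusted p of 0.163. Orc1, the largest subunit of the origin recognition complex, was the member with the widest spread. At 4 h it read 5.68, 4.87 and 5.62 log2, so that replicate 2 alone lay below the baseline values of 5.56, 5.88 and 5.37, and its change of -0.21 ± 0.18 was not called (adjusted p 0.605). Orc6 stood at -0.19 at 4 h and -0.10 at 10 h, and neither was called.

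Of the 5 genes that switch the helicase on, Gins2 alone was called. This subunit of the GINS complex read 8.64, 8.74 and 8.64 log2 at baseline and 8.62, 8.37 and 8.44 at 10 h, all lower, with replicate 1 just under the lowest baseline arrays. It fell by 0.19 ± 0.07 on the log2 scale with a limma adjusted p of 0.0473, which is just under the threshold. The call was lost without any one of 15 of the 18 arrays, with adjusted p from 0.0516 without 24 h replicate 2 to 0.223 without 10 h replicate 2. Gins1 stood at -0.17 and Gins3 at -0.07 log2 at 10 h, and Cdc45 and Mcm10 at 0.02 and 0.01, none of them called. Gins1 was called lower at 10 h without 10 h replicate 3, at -0.25 (adjusted p 0.0305), with the replicate block (0.0426) and with the Gapdh covariate, at -0.35 (0.00385).

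The clamp and its loader held 3 of the 6 calls at 10 h. Pcna, the clamp that tethers the polymerases to DNA, read 12.75, 12.75 and 12.72 log2 at baseline, 12.59, 12.56 and 12.56 at 10 h and 12.54, 12.54 and 12.57 at 24 h. The arrays of both later times lay below all baseline arrays and close to each other, with an SD of 0.02 in each of the 3 groups. Pcna fell by 0.17 ± 0.04 on the log2 scale at 10 h (limma adjusted p 0.00266) and fell by 0.19 ± 0.04 at 24 h (0.000858), to 87.6% of baseline. Rfc3, a clamp loader subunit, read 8.35, 8.05 and 8.28 log2 at baseline and 7.92, 7.79 and 7.84 at 10 h, with no overlap. It fell by 0.38 ± 0.09 at 10 h (adjusted p 0.0029), a call that held in every alternative and without any single array. At 4 h it stood at -0.23 ± 0.09 (0.126), and was called without baseline replicate 2 (0.0303) or with the mean of both probe sets (0.0376). At 24 h its arrays read 8.16, 7.92 and 8.10, which overlapped baseline (change -0.17 ± 0.09, adjusted p 0.228).

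Rfc2, a further subunit of the loader, read 9.35, 9.41 and 9.46 log2 at baseline, 9.17, 9.12 and 9.24 at 4 h, 9.24, 9.07 and 9.18 at 10 h and 9.34, 9.43 and 9.45 at 24 h. The arrays of 4 and 10 h lay below baseline, and at 24 h replicate 1 lay just under the lowest baseline array and the others within the baseline range. Rfc2 fell by 0.23 ± 0.06 at 4 h (limma adjusted p 0.0107) and fell by 0.24 ± 0.06 at 10 h (0.00397), and its change at 24 h was 0.00. The call at 4 h was lost without 4 h replicate 2 (adjusted p 0.0728) or baseline replicate 3 (0.0638). With the mean of the 3 Rfc2 probe sets the change was -0.10 at 4 h (0.55) and -0.22 at 10 h (0.0636). Rfc4 and Rfc5 were not called at any time, and stood at -0.11 and -0.06 log2 at 4 h and at -0.03 and -0.06 at 10 h.

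The genes of DNA synthesis itself were not called. Pola1, Pold1, Pole and Prim1, which encode polymerase subunits and the primase that starts new strands, spanned -0.09 to 0.09 log2 at 4 h and -0.12 to 0.02 at 10 h. Rpa1 and Rpa2, which coat single strands, and Fen1 and Lig1, which trim and join the fragments of the lagging strand, spanned -0.11 to -0.03 at 4 h and -0.14 to 0.04 at 10 h; Fen1 was called lower at 10 h without baseline replicate 2, at -0.20 (limma adjusted p 0.0371). Among the genes of nucleotide supply, Rrm2, the regulated subunit of ribonucleotide reductase, read 10.03, 10.12 and 10.09 log2 at baseline and 9.87, 9.81 and 10.00 at 4 h. Those arrays lay below baseline, but the change of -0.19 ± 0.06 had a limma adjusted p of 0.0681, and at 10 h it was 0.00. Rrm2 was called at 4 h without 4 h replicate 3 (adjusted p 0.025), without 10 h replicate 3 (0.0371) or with the replicate block (0.00873). Rrm1, Tyms and Tk1 stood between -0.12 and -0.03 at 4 h.

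None of the 4 genes that start S phase was called at any time. Ccne1, a cyclin of the G1 to S transition, stood at -0.28 ± 0.11 log2 at 4 h (limma adjusted p 0.166), with arrays of 6.99, 6.89 and 6.79 that overlapped the baseline values of 7.23, 7.37 and 6.91; without baseline replicate 3 it was called, at -0.41 (0.0269). Its relative Ccne2 stood at 0.10 at 4 h and 0.19 ± 0.07 at 24 h, where 8.69, 8.63 and 8.75 lay above the baseline values of 8.45, 8.59 and 8.46 (adjusted p 0.054); it was called higher without baseline replicate 2 (0.0325), 10 h replicate 1 (0.0441) or 10 h replicate 2 (0.0381). E2f1 stood at 0.08 log2 at 4 h and 0.19 at 24 h. E2f2 was lowest at 2 h, at -0.26 ± 0.11, with an adjusted p of 0.401. With the Gapdh control difference, a measure of RNA quality, as a covariate it was -0.46, with 0.00884. Over the 28 members never called, changes in the 9 comparisons ranged from -0.45 to 0.39 log2, with a lowest adjusted p of 0.054.

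The steps between successive times show when the members moved. From 2 h to 4 h 33 of 36 changes were below 0, against 52.2% of all tested genes, and the median was -0.10. Mcm2 fell by 0.36 ± 0.07 (limma adjusted p 0.0068) and Mcm4 fell by 0.31 ± 0.06 (0.00278) in that step, so that 2 of 36 members (5.56%) were called lower where 0.743% of all tested genes were, and 0 higher where 1.16% were; 1.9% were called in either direction. From 10 h to 24 h 35 of 36 changes were above 0, against 49.8% of all tested genes, with a median of 0.15; Pcna was the exception at -0.02. In that step Mcm2 rose by 0.34 ± 0.07 (adjusted p 0.00962), Mcm3 by 0.31 ± 0.08 (0.0473) and Rfc2 by 0.24 ± 0.06 (0.0196), which made 3 of 36 (8.33%) where 0.993% of all tested genes were called higher, 1.17% lower and 2.16% in either direction. Between 1 h and 2 h, and between 4 h and 10 h, 0 of 36 were called by limma, where 1.12% and 4.18% of all tested genes were, and 2 and 4 members had an unadjusted p under 0.05.

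The calls from 10 h to 24 h changed when single arrays were left out. Without 24 h replicate 1 the count of members called was 1, with adjusted p of 0.0955 for Mcm2 and 0.219 for Mcm3. It was also 1 without 10 h replicate 2 and 1 without 24 h replicate 3, where Rfc2 had 0.108 and 0.1. It was 5 without 10 h replicate 3, where Mcm6 (0.00636) and Prim1 (0.0158) were added, and with only the 10 h and 24 h arrays in the fit it was 0, with 0.0537 for Mcm2. Rfc2 also lost its call without 24 h replicate 2 (0.0776), and Mcm3 kept its call without only 6 of the 18 arrays.

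**Figure D4:**
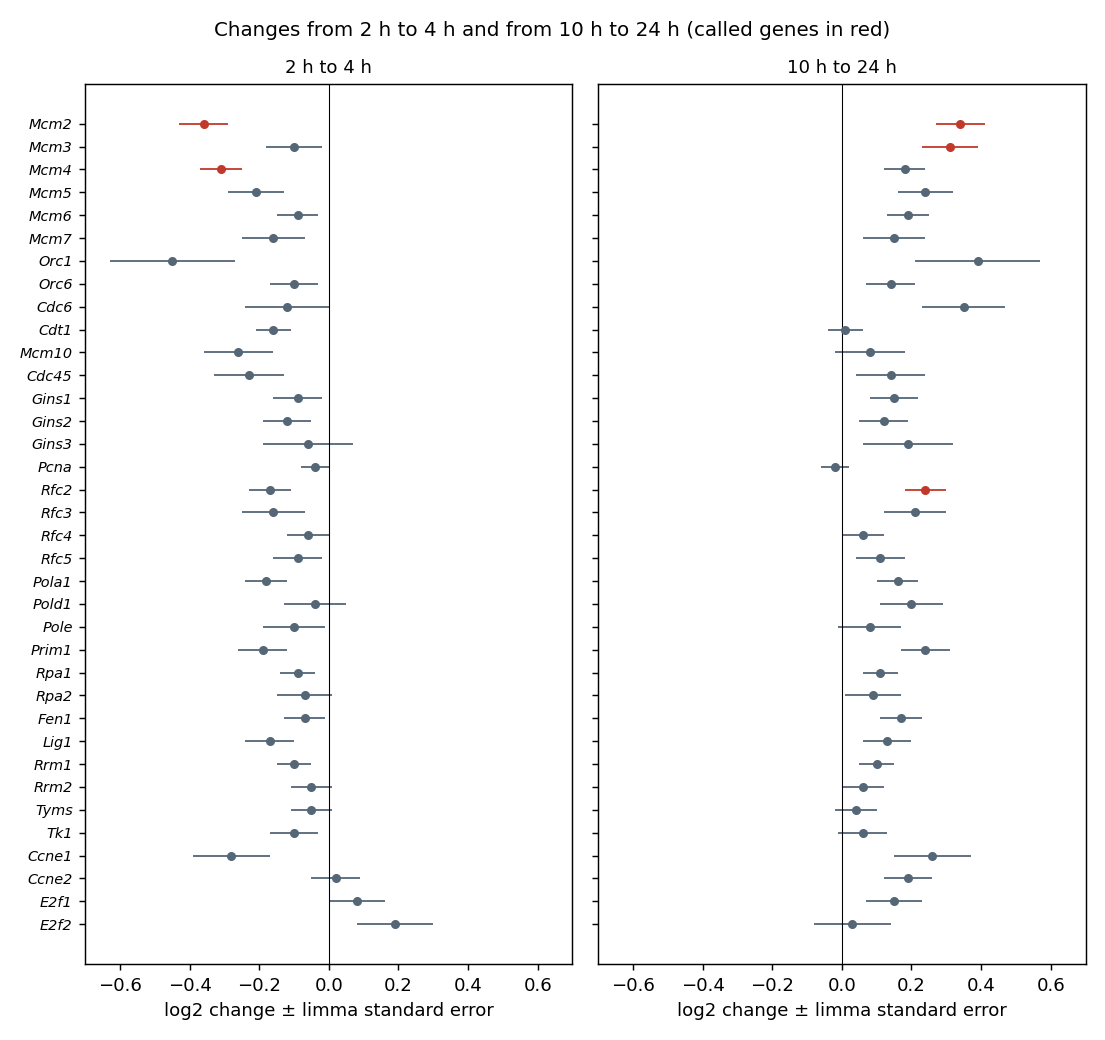
Log2 change of each replication gene from 2 h to 4 h (left) and from 10 h to 24 h (right), with limma standard errors; genes that passed the test are red. On the left 33 of 36 points lie below 0, and on the right 35 of 36 lie above it.

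Other probe sets of the members could be read for 20 genes. Of 26 such probe sets 20, from 19 genes, lay above the control level, and 16 of these 20 were below 0 at 4 h, 15 at 10 h and 6 at 24 h. Of the 8 called genes, those with a further probe set above that level had 7 in all, and these 7 were below 0 at both 4 h and 10 h. The second probe set of Mcm2, for example, changed by -0.24 log2 at 4 h and -0.27 at 10 h, and that of Rfc3 by -0.32 and -0.42. The further probe sets of Rfc2 changed by only -0.03 and -0.05 at 4 h, against -0.23 for the one used, and by -0.27 and -0.15 at 10 h. Among all 20, the sign matched that of the probe set used for 14 at 4 h and 14 at 10 h. A dim probe set of Mcm5, at 4.65 log2, stood at 0.39 at 4 h, against -0.13 for the bright one.

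Promoter sequences are shown for 6 members because they let the falls be set beside the E2F motif. The RefSeq table for GRCm38.p6 held 30 of the 36 genes, in windows of 300 bases from 250 before to 50 after a gene's start; Mcm4, Gins1, Gins2, Rfc2, Pole and Ccne2 are named only. The motif was searched on both strands as TTTGGCGC, TTTCCCGC, TTTCGCGC and TTTGCCGC, which can overlap each other. At least 1 match lay in the windows of 13 of the 30 members (43.3%), and of 2.6% of all 27025 genes in the table. A CCAAT match lay in 19 of 30 members (63.3%) and in 41.1% of all genes. The 5 called members with a sequence are followed by Mcm6, which was not called. Mcm6 was picked for display, and it had the most E2F matches of the 30 members, so it does not stand for the uncalled members. Each line gives the 150 bases before the start on the gene's own strand, with E2F and CCAAT matches of either strand in capitals.
Mcm2 (chr6:88898781-88898930, minus strand): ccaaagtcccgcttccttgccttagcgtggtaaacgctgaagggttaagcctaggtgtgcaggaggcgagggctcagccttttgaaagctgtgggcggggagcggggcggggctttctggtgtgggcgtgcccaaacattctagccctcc
Mcm3 (chr1:20820313-20820462, minus strand): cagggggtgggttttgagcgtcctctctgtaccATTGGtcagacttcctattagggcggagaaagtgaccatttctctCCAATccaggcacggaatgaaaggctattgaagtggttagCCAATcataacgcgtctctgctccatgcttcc
Cdt1 (chr8:122567865-122568014, plus strand): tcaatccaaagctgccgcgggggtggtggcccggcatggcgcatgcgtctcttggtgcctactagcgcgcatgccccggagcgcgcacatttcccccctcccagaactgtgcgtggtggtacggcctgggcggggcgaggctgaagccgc
Pcna (chr2:132253181-132253330, minus strand): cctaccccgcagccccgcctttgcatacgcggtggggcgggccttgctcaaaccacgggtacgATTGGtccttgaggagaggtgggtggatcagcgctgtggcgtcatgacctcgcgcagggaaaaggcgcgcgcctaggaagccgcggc
Rfc3 (chr5:151651209-151651358, minus strand): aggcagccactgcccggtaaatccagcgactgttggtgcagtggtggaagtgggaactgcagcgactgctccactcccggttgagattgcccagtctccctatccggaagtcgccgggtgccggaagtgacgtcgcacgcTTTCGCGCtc
Mcm6 (chr1:128359706-128359855, minus strand): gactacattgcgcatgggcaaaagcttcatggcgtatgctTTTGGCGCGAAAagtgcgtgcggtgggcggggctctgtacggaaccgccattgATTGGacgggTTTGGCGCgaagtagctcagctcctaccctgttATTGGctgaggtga

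Positions are counted from the gene's start, with the base before it as -1, and mark the first base of a match in the gene's direction. In Mcm6 3 E2F matches lay at -110, -106 and -47, of which the first and the second overlap, and its mRNA stood at 0.01 log2 at 4 h and -0.06 at 10 h. In Rfc3, which fell at 10 h, matches lay at -10 and 1. The matches of Mcm3 at 20 and 39 and of Cdt1 at 33 lie after the start, outside the stretch printed. Mcm2 and Pcna, which also fell, had no E2F match in this window; Pcna had a CCAAT match at -87, and Mcm2 had one at -175. Of the 5 called members with a sequence 3 had an E2F match. Uncalled members went both ways: Mcm5 and Mcm7, for example, had matches, and Tyms, Tk1, Rfc4, Rfc5 and Fen1 had none. Whether a match went with a fall was not tested. The short motif of the glucocorticoid receptor, AGAACA, lay in 5 of 30 members (16.7%) and in 21.3% of all genes, and of the called members only Rfc3 had one, at -159. Its full palindrome lay in 0 of 30 members and in 3 of 27025 genes. The cell cycle motif TTTGAA lay in 5 of 30 members (16.7%) and in 20.2% of all genes, at -70 in Mcm2.

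Further genes of the pathway came from 4 lists. All tested genes give the shares to set them against: 3.03% lower and 4.5% higher at 4 h, 6.16% and 8.29% at 10 h and 5.34% and 7.38% at 24 h. Of 26 tested genes of origins and forks 2 fell at 4 h, Rpa3 at -0.30 ± 0.08 (limma adjusted p 0.0172) and Gmnn, which encodes the Cdt1 inhibitor geminin, at -0.18 ± 0.05 (0.0179). The median of that list was -0.08 log2 at 4 h and 0.01 at 10 h. At 10 h Pole4 fell, at -0.26 ± 0.08, and Rnaseh2a rose, at 0.22 ± 0.07; at 24 h Mcm8 and Orc5 rose, at 0.49 ± 0.13 and 0.30 ± 0.08. Mcm8 was also called higher at 2 h, at 0.51 ± 0.13. Of 25 tested genes of S phase chromatin, nucleotides and fork repair 3 fell at 4 h: the DNA methyltransferase gene Dnmt1 at -0.33 ± 0.06, Tipin, of the fork protection complex, at -0.33 ± 0.06 and Chaf1b, of chromatin assembly, at -0.31 ± 0.10. At 10 h Tipin, Dnmt1 and Uhrf1, the partner of Dnmt1, fell, at -0.31, -0.24 and -0.24, and Brca2 rose, at 0.44 ± 0.13; at 24 h none fell and Shmt1 rose, at 0.59 ± 0.17. Samhd1, which encodes an enzyme that degrades deoxynucleotides, rose by 0.35 ± 0.06 at 2 h, 0.68 ± 0.06 at 4 h, 0.92 ± 0.06 at 10 h (adjusted p 5.88e-12) and 0.54 ± 0.06 at 24 h.

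Of 27 tested genes of the E2F and RB families and their kinases 4 rose and 1 fell at 4 h, 5 rose and 4 fell at 10 h and 6 rose and 2 fell at 24 h. Cdkn1b, which encodes the kinase inhibitor p27, rose by 0.51 ± 0.09 at 4 h, 0.61 ± 0.09 at 10 h (limma adjusted p 1.96e-05) and 0.32 ± 0.09 at 24 h. Tfdp2, a partner of E2F proteins, rose by 0.48 ± 0.13, 0.63 ± 0.13 and 0.51 ± 0.13 at these times, and Ccnd3, a D cyclin, by 0.38 ± 0.09, 0.53 ± 0.09 and 0.55 ± 0.09. Rb1 fell by 0.24 ± 0.07 at 4 h. Ccnd1, the D cyclin that CSF1 induces in macrophages, fell by 0.38 ± 0.06 at 10 h and fell by 0.46 ± 0.06 at 24 h, and the inhibitor gene Cdkn1c fell by 1.02 ± 0.21 and fell by 2.51 ± 0.21. E2f6 fell by 0.24 ± 0.07 at 10 h, and Skp2, of the ligase that marks p27 for degradation, rose by 0.49 ± 0.08 at 24 h. Skp2 was also called higher at 2 h, at 0.48 ± 0.08, and at 4 h, at 0.27 ± 0.08, but not at 10 h. Of 17 tested mitosis genes 2 fell at 4 h, Cenpe by 0.36 ± 0.08 and Aurka by 0.25 ± 0.08, and 0 were called by limma at 10 h or 24 h. The median of the mitosis list was -0.11 log2 at 4 h and 0.09 at 10 h, beside -0.10 at both times for the 36 members. It was -0.07 and -0.09 for the list of S phase chromatin, nucleotides and fork repair, and -0.04 and 0.05 for the E2F and RB list.

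Values of RNA quality, and of markers of other cells, also differed between the groups. For the Gapdh controls, the probe set at the 3' end of the transcript read higher than that at the 5' end. The difference was 0.056 ± 0.030 log2 (SD, n = 3) at baseline, 0.165 ± 0.024 at 1 h, 0.148 ± 0.077 at 2 h, 0.190 ± 0.021 at 4 h, 0.197 ± 0.090 at 10 h and 0.20 ± 0.034 at 24 h. For the Actb controls it moved less, from 0.376 ± 0.019 at baseline to 0.40 ± 0.029 at 1 h and 0.427 ± 0.019 at 2 h. At 4, 10 and 24 h it was 0.424 ± 0.030, 0.421 ± 0.019 and 0.434 ± 0.028. The means of both differences were above baseline at every time from 1 h on. The Gapdh difference was 0.023 to 0.083 on the baseline arrays. It was higher than that on all treated arrays but 2 h replicate 1, at 0.059. A fit with it as a covariate therefore separates it poorly from treatment. In that fit the median of the members was -0.15 log2 at 4 h, -0.12 at 10 h and -0.01 at 24 h. The calls of Mcm2 and Mcm4 at 4 h and of Mcm2, Mcm3 and Rfc3 at 10 h held in that fit. At 4 h Cdt1, at -0.17 (adjusted p 0.101), and Rfc2, at -0.21 (0.107), were no longer called, while Mcm3, at -0.42 (0.00364), and Rrm2, at -0.29 (0.019), were. At 10 h Gins2, at -0.05 (0.746), Pcna, at -0.12 (0.104), and Rfc2, at -0.22 (0.0574), were no longer called, while Gins1, at -0.35 (0.00385), Fen1, at -0.24 (0.0322), and Mcm6, at -0.21 (0.025), were. At 24 h Pcna, at -0.14 (0.0654), was no longer called. The counts stayed at 4 at 4 h and 6 at 10 h, all lower. All 8 macrophage markers lay above the control level, with a summed level between 14.49 and 14.59 log2 on all arrays. That sum was carried mostly by the brightest, Lyz2 and Cd68, and single markers moved within it. Mertk rose by 1.12 ± 0.09 at 2 h, 1.88 ± 0.09 at 4 h, 2.12 ± 0.09 at 10 h and 2.10 ± 0.09 at 24 h. Itgam rose by 0.39 ± 0.08 at 10 h and 0.55 ± 0.08 at 24 h. Fcgr1 fell by 0.31 ± 0.10 at 24 h, and the other macrophage markers were not called. The summed level of 6 markers of marrow stem and progenitor cells was 7.02 to 7.13 at baseline, 6.57 to 6.89 at 4 h, 6.36 to 6.42 at 10 h and 6.30 to 6.59 at 24 h. In that list Kit, a growth factor receptor, fell, at -0.53 ± 0.16, -1.5 ± 0.16 and -1.32 ± 0.16 log2 at 4, 10 and 24 h, while Cd34, Flt3, Myb and Gata2 lay under the control level on average; Flt3 was called higher at 10 h, at 0.36 ± 0.12. The summed level of 9 markers of promyelocytes and neutrophils, 7 of them above the control level, was 9.02 to 9.62 at baseline, 9.11 to 9.54 at 4 h, 8.85 to 9.34 at 10 h and 8.95 to 9.15 at 24 h. In that list the granule genes Ltf and Camp fell at 10 h, at -0.95 ± 0.22 and -0.51 ± 0.16, and Ltf and Ngp fell at 24 h, at -0.90 ± 0.22 and -1.13 ± 0.18. Camp read 3.67 log2 at 10 h, under the control level. The granule genes Mpo, Elane, Prtn3 and Ctsg were not called. They read 4.08, 3.42, 3.88 and 3.94 at baseline and 4.02, 3.44, 4.00 and 4.35 at 10 h. S100a8, the brightest of the list, and Cxcr2 were not called either. Lists of erythroid, B, T and NK, mast, megakaryocyte, stromal and dendritic cell markers were read too. Their only calls against baseline were Hba-a1 at 4 h (0.51 ± 0.12), Flt3 again at 10 h and Itgax at 24 h (-0.63 ± 0.15). Hba-a1, like Flt3, lay under the control level on average. The part of RNA quality and of other cells in the results was not tested.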

How the data were processed

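RNA of 18 samples was hybridised to Affymetrix mouse arrays. Values are linear intensities, 5.37 to 15224, deposited by the authors after RMA with affy, per the submitters' processing notes; versions are not given in the sources used here. RMA aligns the arrays and would hide a shift common to most genes. Log2 was taken here. An evenly stepped run of 211 probe sets in baseline replicate 1, with none of the 36 genes, was left out on all arrays. Of 45141 probe sets 28898 had 1 symbol, and the brightest stood for each gene. Genes needed 3 arrays at or above the 40th percentile of the array. limma 3.58.1 in R 4.3.3 fitted 1 mean per group over 18 arrays with an intensity trend and was tested on simulated data; tests were two-sided, with Benjamini-Hochberg adjustment per comparison. The control level, 3.87 log2, averages each array's 95th percentile over 40 control probe sets. The design text calls replicates biological; p-values measure the spread between these arrays, whose number limits precision. Named genes are the 36 members, in full where called, and of each pathway list the called genes with the 3 largest changes per direction at 4, 10 and 24 h; uncalled members given in full, and values of these genes at other times, were chosen after their values were seen. Members, lists and motifs were chosen with earlier results of these data known. Alternatives covered the replicate block, probe choice, filter, variance model, arrays in the fit, scaling, stepped run, Gapdh covariate, adjustment and each array left out.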

Additional observations from a re-analysis of the deposited data

Results flagged for a closer look

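5 changes of single members between successive times passed limma's test, which means that the change against baseline differed between those times. From 2 h to 4 h Mcm2 changed by -0.36 log2 (limma adjusted p 0.0068) and Mcm4 by -0.31 (0.00278). From 10 h to 24 h Mcm2 changed by 0.34 (0.00962), Mcm3 by 0.31 (0.0473) and Rfc2 by 0.24 (0.0196). The 3 changes from 10 h to 24 h lost the call without some single arrays, Mcm2 without 24 h replicate 1 (0.0955), Rfc2 without 10 h replicate 2 (0.108), 24 h replicate 2 (0.0776) or 24 h replicate 3 (0.1), and Mcm3 without any one of 12 arrays, with adjusted p up to 0.219. The 2 changes from 2 h to 4 h held without any single array and in all 13 other alternatives, although probe choice could not change the values of Mcm4, which had 1 probe set.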

How the results depend on the processing

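Under 13 alternatives and 18 fits that each left out 1 array, no called change reversed. The calls of Mcm2 and Mcm4 at 4 h, of Mcm2 and Rfc3 at 10 h and of Mcm2 and Mcm4 from 2 h to 4 h held in each of these fits. Mcm4 had 1 probe set, so probe choice could not change its own values. The stepped run held no member, so its settings could not change the values of these genes. The median of the 36 genes ranged from -0.15 to -0.06 log2 at 4 h, -0.12 to -0.08 at 10 h and -0.01 to 0.10 at 24 h. The members called numbered 4 at 4 h, 6 at 10 h, 1 at 24 h, 2 from 2 h to 4 h, 0 from 4 h to 10 h and 3 from 10 h to 24 h. Over the 13 alternatives the counts ranged from 2 to 5 at 4 h and from 3 to 9 at 10 h. With the probe set of largest variance they numbered 2 at 4 h, 3 at 10 h, 2 at 24 h (1 higher, Mcm5) and 1 from 10 h to 24 h. With the mean of all probe sets they numbered 3 at 24 h (2 higher, Mcm5 and Ccne2) and 1 from 10 h to 24 h. In that setting Cdt1 and Rfc2 lost their calls at 4 h and Rfc3 gained one. Mcm3 and Rfc2 lost theirs at 10 h. The 50th percentile filter and median centring each gave 2 at 24 h (1 higher, Ccne2). From 10 h to 24 h there was 1 with no intensity trend and 0 with only the groups compared. In both of these settings Mcm3 and Gins2 lost their calls at 10 h. Gins2 lost it too with no filter on dim genes and with adjustment over all times together. The Gapdh covariate gave 1 at 2 h and 0 at 24 h. With 1 array left out the counts ranged from 3 to 5 at 4 h, 4 to 6 at 10 h, 1 to 2 at 24 h, 0 to 1 from 4 h to 10 h and 1 to 5 from 10 h to 24 h. The cause of these shifts was not tested.

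The labels do not say whether replicate numbers pair arrays across times. Deviations of same-numbered arrays correlated at 0.0236 to 0.29, and 18 of 18 arrays correlated best with their own number, which is a hint from the data and not from the design. With the replicate block no call was lost; 5 members were called at 4 h (Rrm2 added), 9 at 10 h (Mcm4, Cdt1 and Gins1 added), 2 at 24 h (Ccne2 added, higher), 3 from 2 h to 4 h (Cdt1 added), 1 from 4 h to 10 h (Rrm2, higher) and 5 from 10 h to 24 h (Mcm6 and Prim1 added). Over all genes the block gave 93 calls against 51 at 1 h, 432 against 283 at 2 h, 500 against 251 from 2 h to 4 h, 945 against 551 from 4 h to 10 h and 547 against 285 from 10 h to 24 h. Among the other alternatives, the counts of all genes that moved most went to 106 at 1 h, 1257 from 1905 at 10 h, 90 from 148 between 1 h and 2 h, and as low as 129, 316 and 124 in the last 3 steps.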

Other observations

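Array by array, replicate 2 had the lowest mean over the 36 genes at 4 h, 10 h and 24 h, at -0.176, -0.154 and -0.014 log2 from baseline. It had the highest of the 3 at baseline, 1 h and 2 h, at 0.010, -0.004 and 0.043.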
